A study of Mus musculus with 24 samples.

Results

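The genes of the carnitine shuttle and of core mitochondrial beta-oxidation were compared in the livers of mice fed a Trans, Cis or Saturated diet. The set consists of 10 genes chosen by name, namely Cpt1a, Slc25a20 and Cpt2 of the shuttle, the acyl-CoA dehydrogenases Acadvl, Acadl, Acadm and Acads, the trifunctional protein genes Hadha and Hadhb, and the thiolase gene Acaa2. Each gene was read from a probe set (a group of array probes summarised as a single value) that is assigned to that gene alone, and where several existed, from the one of highest mean. A value was obtained for 9 of the 10 genes, out of 18820 genes read in this way. The probe set of Acadvl is also assigned to Dvl2, so Acadvl expression is not reported here.

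All mice were male, of the C57BL/6J strain and 4 to 6 months old, and were assigned at random to the Trans group (8 mice), the Cis group (8 mice) or the Saturated group (8 mice). Trans mice received soy oil that had been partially hydrogenated, Cis mice a combination of palm olein and canola oils, and Saturated mice cocoa butter. Fat supplied 45% of the energy in every diet and feeding lasted 7 weeks, so all 24 mice were on a high-fat diet and each comparison is between fat sources. Liver RNA of each mouse was hybridised to its own Affymetrix Mouse Gene 1.1 ST array. Deposited values are log2 signals, and the signals given in the text are these values on the linear scale. In such bulk tissue, fewer cells of a type and less RNA per cell cannot be told apart.

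Long-chain fatty acids cannot cross the inner mitochondrial membrane as CoA esters. Carnitine palmitoyltransferase 1A on the outer membrane passes the acyl group to carnitine, the carrier SLC25A20 moves the acylcarnitine inward in exchange for free carnitine, and carnitine palmitoyltransferase 2 rebuilds the CoA ester in the matrix. The acyl-CoA is then shortened in a repeated spiral, in which a dehydrogenase matched to the chain length opens the round, the trifunctional protein hydrates, oxidises and cleaves long-chain intermediates, and thiolases release acetyl-CoA. In the fasted liver the acetyl-CoA largely becomes ketone bodies, and many of these genes are classical targets of the fatty acid receptor PPARα in rodents.

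Promoter sequence was available in RefSeq (GRCm38.p6) for 9 of the 10 listed genes, Acadvl included, as windows of 300 bases that run from 250 bases before the transcription start to 50 after it. Hadha and Hadhb code the α and β subunits of the same enzyme complex and start in opposite directions on chromosome 5, with 272 bases between their start sites (chr5:30154981-30155252, plus strand), so their windows share 228 bases. The spacer is shown because it holds the promoters of both genes. Below it stand the 120 bases before the start of Cpt2 (chr4:107923590-107923709, minus strand) and Slc25a20 (chr9:108662016-108662135, plus strand), the genes with the largest difference for Trans against Saturated (Cpt2) and for Cis against Saturated (Slc25a20), and of Acadm (chr3:153944644-153944763, minus strand) and Cpt1a (chr19:3323181-3323300, plus strand). Sequences run 5′ to 3′ on the strand of the gene, the spacer on the plus strand. Capitals mark matches on either strand to the GC box with the letters GGGCGG, to the promoter element known as CCAAT, and to the half-site of nuclear receptors with the letters AGGTCA.
Hadha-Hadhb spacer: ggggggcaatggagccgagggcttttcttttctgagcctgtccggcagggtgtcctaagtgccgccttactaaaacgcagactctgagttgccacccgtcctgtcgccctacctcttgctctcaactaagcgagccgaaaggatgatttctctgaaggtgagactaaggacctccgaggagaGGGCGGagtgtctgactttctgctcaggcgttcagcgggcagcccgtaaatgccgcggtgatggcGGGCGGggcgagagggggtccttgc
Cpt2: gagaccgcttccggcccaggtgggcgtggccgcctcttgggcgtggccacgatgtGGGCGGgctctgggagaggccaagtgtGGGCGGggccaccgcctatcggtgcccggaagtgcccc
Slc25a20: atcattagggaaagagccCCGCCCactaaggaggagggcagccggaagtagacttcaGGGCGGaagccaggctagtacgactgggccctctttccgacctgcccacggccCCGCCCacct
Acadm: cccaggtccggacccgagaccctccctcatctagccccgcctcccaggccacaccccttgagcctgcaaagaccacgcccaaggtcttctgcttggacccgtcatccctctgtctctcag
Cpt1a: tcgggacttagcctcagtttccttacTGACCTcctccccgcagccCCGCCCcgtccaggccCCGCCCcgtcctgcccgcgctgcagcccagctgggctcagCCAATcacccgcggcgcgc

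A GC box was present in 7 of the 9 windows, that is in those of Cpt1a, Cpt2, Slc25a20, Acadl, Acads, Hadha and Hadhb, compared with 35.7% of all 32851 mouse promoter windows of the same length. Hadha and Hadhb share much of their window and do not count as independent. The CCAAT box was found in 1 of the 9 windows (Cpt1a) and in 37.4% of all windows. The half-site AGGTCA occurred in the windows of Cpt1a, Acadm and Acadvl, the match of Acadm lying outside the stretch printed above, and in 16.3% of all windows. Its direct repeat with 1 spacer base, AGGTCANAGGTCA, to which PPARα binds with RXR, occurred in 0 of the 9 windows and in 0.0396% of all windows. TCAAGGTCA, the site of estrogen-related receptors, which contains the half-site, also occurred in 0 of 9 and in 0.423% of all windows. These counts describe letters within the windows only.

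The arrays were similar in overall signal, with medians between 2.94 and 3.06 on the log2 scale. Each array was correlated with the other arrays, and the median of these values was lowest for Trans replicate 4 (0.975) and reached 0.986. All 9 measured hepatocyte markers, albumin among them, had a mean signal over 20, and their summed signal was between 32769 and 35463 in Trans livers, between 33725 and 36371 in Cis livers and between 34161 and 38427 in Saturated livers. Diets were compared with limma in a single fit over the 24 livers, and a gene was called at a Benjamini-Hochberg adjusted p under 0.05 over all 35556 probe sets. Few differences reached this threshold anywhere on the array. It called 0.00844% of probe sets for Trans against Saturated (3 of 35556), 0.00281% for Trans against Cis and 0% for Cis against Saturated.

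In Trans livers, every measured gene of the shuttle and of the spiral had a higher mean than in Saturated livers, and none was called. The differences were small, between 0.02 (Acaa2) and 0.21 (Cpt2) on the log2 scale, with a median of 0.15, or 1.11-fold. The median over all 18820 genes was 0.0038. Among these genes 51.6% had a higher mean in Trans livers, and 48.9% of the 8349 genes with a mean signal over 20 did. At an unadjusted p under 0.05, 5 of the 9 genes were higher in Trans livers (Cpt1a, Cpt2, Slc25a20, Acadm and Acadl), compared with 4.55% of all genes and 5.65% of those over a signal of 20 that were higher by the same rule. In exact permutation tests of 8 against 8 livers, 5 genes likewise had an unadjusted p under 0.05, with Acads (0.0204) in place of Slc25a20 (0.0771). The 9 values come from the same livers and are not independent of each other.

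**Figure D1:**
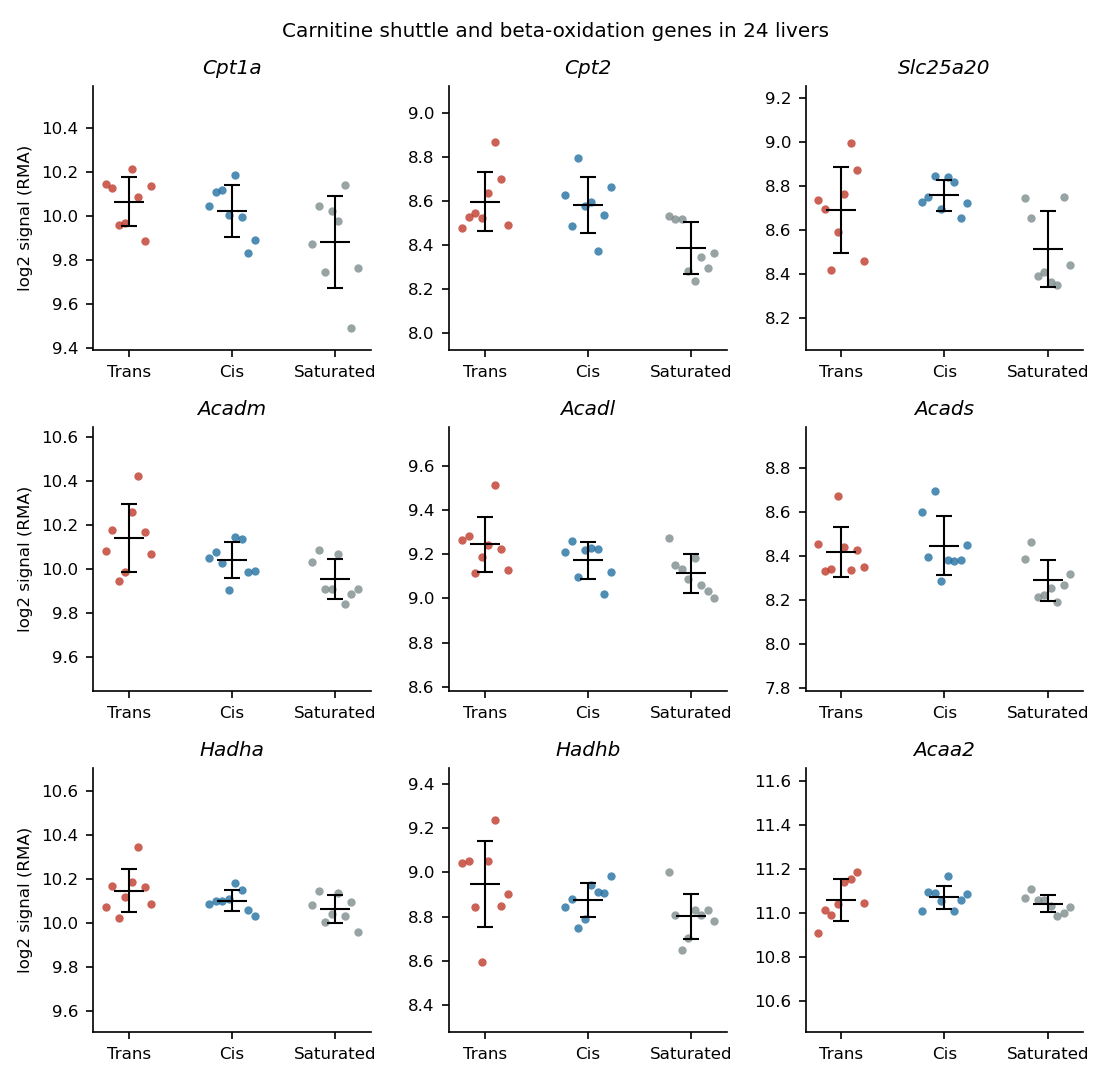
Log2 signal of the 9 measured genes in each of the 24 livers, grouped by diet (Trans, Cis, Saturated). Points are single livers, and the bar and whiskers give the mean and SD of the 8 livers. The widest gap to the Saturated group is that of Cpt2 for Trans livers and that of Slc25a20 for Cis livers. Acaa2 shows almost none, and the groups overlap in every panel.

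Of the shuttle genes, Cpt1a codes the malonyl-CoA sensitive enzyme at which entry of fatty acids is controlled. The Cpt1a signal had a lowest, median and highest value of 948, 1103 and 1187 in Trans livers, 913, 1043 and 1165 in Cis livers, and 720.3, 972 and 1129.5 in Saturated livers. The Saturated group was the most scattered, mainly through the low value of its replicate 7, and overlapped with both other groups. All 8 Trans livers nevertheless lay above the Saturated mean. The log2 difference between the Trans and Saturated groups was 0.18 (SE 0.08, limma adjusted p = 0.623), and that between the Cis and Saturated groups 0.14 (SE 0.08, adjusted p = 0.816). Without Saturated replicate 7, the first of these differences was 0.13 and the second 0.08.

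Slc25a20, the carnitine-acylcarnitine translocase, was the one shuttle gene with its highest mean in the Cis group. Its signal was 342, 419.9 and 509 (lowest, median and highest) in Trans livers, 403, 427 and 459.7 in Cis livers, and 326, 343 and 430.1 in Saturated livers. The Cis livers were tightly grouped and all lay above the Saturated mean, whereas the Trans livers spread over a wider range than either other group. Relative to the Saturated group, Slc25a20 differed by 0.24 in Cis livers (SE 0.08, limma adjusted p = 0.63, unadjusted p = 0.0057) and by 0.18 in Trans livers (SE 0.08, adjusted p = 0.65). Between Trans and Cis livers the difference was -0.07, with a 95% confidence interval from -0.23 to 0.10.

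Cpt2, which returns the acyl group to CoA inside the matrix, had the largest difference between the Trans and Saturated groups. The signal of Cpt2 was 356, 371 and 467 (lowest, median and highest) in Trans livers, 332, 384 and 444 in Cis livers, and 301, 328 and 370.1 in Saturated livers. Trans replicates 1, 2, 4 and 8 lay within the Saturated range. All 8 Trans livers exceeded the Saturated mean, and all 8 Saturated livers lay below the Trans mean. Trans livers differed from Saturated livers by 0.21 (SE 0.07, 1.16-fold, limma unadjusted p = 0.0050, adjusted p = 0.469). An exact two-sided permutation test of the 8 against 8 livers gave an unadjusted p of 0.0062, where the smallest possible is 1.6e-04. Cis livers had nearly the same difference from Saturated livers, 0.19 (SE 0.07, adjusted p = 0.639), and the Trans and Cis groups differed by 0.01 (95% confidence interval -0.13 to 0.15).

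Among the acyl-CoA dehydrogenases, the medium-chain gene Acadm followed the order Trans, Cis, Saturated. Acadm signals were 985, 1117 and 1373 (lowest, median and highest) in Trans livers, 957, 1052 and 1132 in Cis livers, and 918, 962 and 1086 in Saturated livers. The groups overlapped. The Saturated mean was exceeded in 7 of 8 Trans livers, and Trans replicate 6 was above all other livers. The log2 difference was 0.18 for Trans against Saturated (SE 0.06, limma unadjusted p = 0.0072, adjusted p = 0.491). For Trans against Cis it was 0.10 (SE 0.06, adjusted p = 0.847), the largest of the 9 genes in that comparison, and without Trans replicate 6 it was 0.06.

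The long-chain gene Acadl had the same order with smaller differences. Acadl signals were 554, 601 and 731 (lowest, median and highest) in Trans livers, 519.6, 595 and 614 in Cis livers, and 513, 553 and 619 in Saturated livers. Trans replicate 6 again stood clear of the other Trans livers, and the remaining values overlapped widely. Acadl differed by 0.13 between Trans and Saturated livers (SE 0.06, limma adjusted p = 0.637), and by 0.09 without Trans replicate 6. The short-chain gene Acads had a different pattern, with Cis and Trans livers at almost the same median. Its signal was 322, 335 and 407 (lowest, median and highest) in Trans livers, 312, 335 and 414 in Cis livers, and 292, 307 and 352 in Saturated livers. The highest values belonged to Trans replicate 4 and Cis replicate 3, neither of which was high for the other dehydrogenases. Acads differed by 0.16 between Cis and Saturated livers (SE 0.06, limma unadjusted p = 0.0209, adjusted p = 0.692) and by 0.13 between Trans and Saturated livers (SE 0.06, adjusted p = 0.690).

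The genes of the trifunctional protein, whose promoter is printed above as the spacer, had no called difference between diets. Hadha, which codes the hydratase and 3-hydroxyacyl-CoA dehydrogenase subunit, had signals of 1041, 1130.0 and 1301 (lowest, median and highest) in Trans livers, 1046, 1097 and 1160.0 in Cis livers, and 996, 1069 and 1131 in Saturated livers. Only Trans replicate 6 lay well outside the common range. The Trans and Saturated groups differed by 0.08 (SE 0.05, limma adjusted p = 0.730), and by 0.06 without Trans replicate 6. Hadhb, the gene of the thiolase subunit, had signals of 386, 503 and 604 (lowest, median and highest) in Trans livers, 429.8, 475 and 506 in Cis livers, and 401, 448 and 512 in Saturated livers. The lowest and the highest Hadhb signals of all 24 livers were both in the Trans group, in replicates 4 and 6. The Trans and Saturated groups differed by 0.15 (SE 0.07, limma adjusted p = 0.687). This Hadhb difference was 0.20 without Trans replicate 4 and 0.10 without Trans replicate 6. The second probe set of Hadhb, whose values correlated with the first at r = 0.986 over the livers, gave 0.16 (SE 0.07, limma unadjusted p = 0.0430, adjusted p = 0.666).

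Acaa2, the thiolase that acts on medium-chain 3-ketoacyl-CoA, was nearly flat across the diets. Its signal was 1925, 2112 and 2335 (lowest, median and highest) in Trans livers, 2063, 2157 and 2303 in Cis livers, and 2031, 2117 and 2209.9 in Saturated livers. The Trans group held both the lowest and the highest value, and only 4 of its 8 livers lay above the Saturated mean. The difference was 0.02 for Trans against Saturated, with a 95% confidence interval from -0.08 to 0.11, and 0.03 for Cis against Saturated (-0.06 to 0.12). Both intervals exclude differences as large as those of Cpt2 (0.21 and 0.19), although Acaa2 and Cpt2 were not tested against each other.

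**Figure D2:**
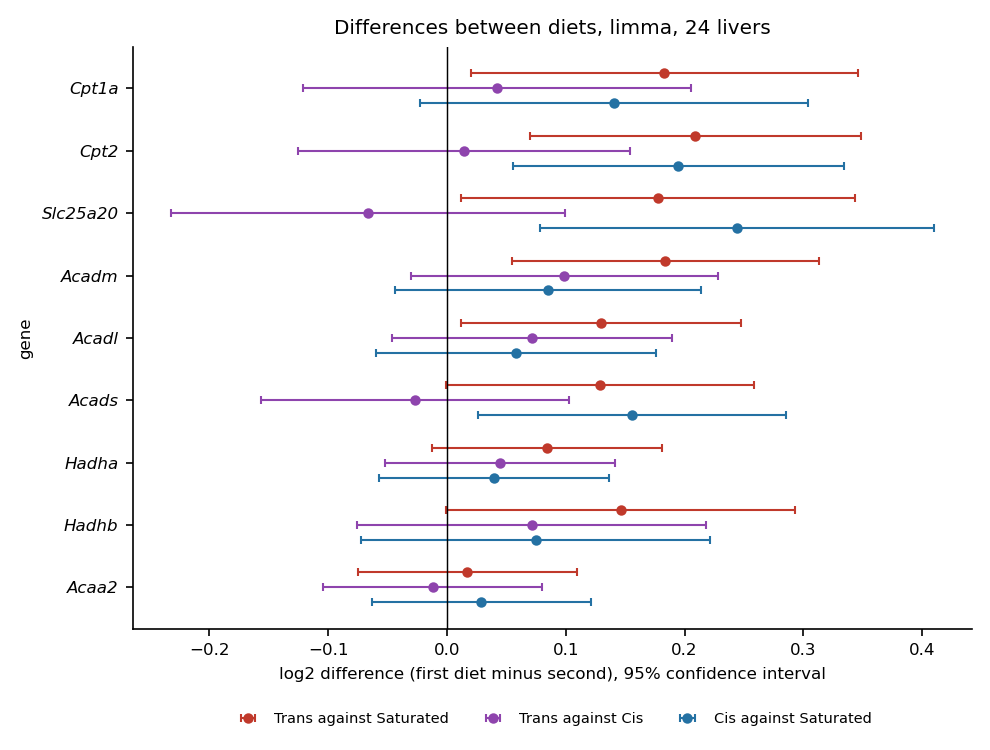
Log2 difference of each of the 9 genes between diets with its 95% confidence interval, for Trans against Saturated, Trans against Cis and Cis against Saturated. All points lie above 0 against the Saturated group, the intervals of Cpt1a, Cpt2, Slc25a20, Acadm and Acadl exclude 0 for Trans against Saturated, and every interval includes 0 for Trans against Cis.

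Between Cis and Saturated livers, the 9 genes likewise all had a higher mean in the Cis group and none was called. The median difference was 0.08 on the log2 scale (1.06-fold), compared with 0.0036 over all genes, and 51.4% of all genes and 43.4% of those with a signal over 20 had a higher mean. At an unadjusted p under 0.05, 3 of the 9 genes were higher (Cpt2, Slc25a20 and Acads), compared with 3.47% of all genes and 3.27% of those with a signal over 20. The unadjusted p of the exact permutation test was 0.0073 for Cpt2, 0.0051 for Slc25a20 and 0.0154 for Acads, with 8 livers in each group. This comparison and that of Trans with Saturated use the same 8 Saturated livers, so that the common direction of the 9 genes is not an independent observation.

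Trans and Cis livers differed less. The mean was higher in Trans livers for 6 of the 9 genes and lower for Slc25a20, Acads and Acaa2, with a median difference of 0.04, while 50.5% of all genes and 55.2% of those with a signal over 20 had a higher mean in Trans livers. None of the 9 was called, with limma adjusted p-values between 0.847 and 0.988, and 0 passed an unadjusted p under 0.05, compared with 3.50% of all genes, and 4.54% of those with a signal over 20, that were higher by this rule. The 95% confidence interval of the difference reached at most 0.23 in either direction, for Acadm and Slc25a20, so larger differences lay outside the interval for each gene. Over all 3 diets together, the F test of limma called none of the 9 genes, compared with 0.00281% of all probe sets, and 4 of 9 had an unadjusted p under 0.05 (Cpt2, Slc25a20, Acadm and Acads), compared with 7.96% of all genes and 10.2% of those with a signal over 20. The order Trans over Cis over Saturated held for 6 of the 9 means, and for 18.0% of genes with a signal over 20. In each of the 3 comparisons the values of the groups overlapped for all 9 genes. The share of all genes whose groups overlap was not counted.

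The 9 genes were next viewed liver by liver, as log2 values relative to each gene's mean over the 24 livers. The average of the 9 genes was 0.06 ± 0.10 in Trans livers, 0.03 ± 0.05 in Cis livers and -0.08 ± 0.07 in Saturated livers (SD, n = 8 each). The groups overlapped, from -0.07 to 0.24 in Trans livers, from -0.04 to 0.10 in Cis livers and from -0.14 to 0.02 in Saturated livers. Within the Saturated group, replicates 1 and 2 were at 0.02 and the other 6 livers were between -0.14 and -0.08, below every Trans and Cis liver. In Saturated replicate 8, 0 of the 9 genes exceeded the gene's own mean.

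The Trans group was the most spread. Trans replicate 6 had the highest average and was the highest of all 24 livers in 6 of the 9 genes (Cpt2, Slc25a20, Acadm, Acadl, Hadha and Hadhb), yet it was not the highest for Cpt1a, Acads or Acaa2. At the other end, Trans replicate 3 had an average of -0.07 and only 1 of 9 genes above its mean. Without Trans replicate 6 the median difference of the 9 genes was 0.13 for Trans against Saturated, with 4 genes at an unadjusted p under 0.05, and 0.02 for Trans against Cis. Without Trans replicate 4, the array least like the others, the median for Trans against Saturated was 0.19 with 6 genes at an unadjusted p under 0.05, and without Saturated replicate 2, which had the highest Acadm, Acads, Hadha and Acaa2 signals of its diet, it was 0.15 with 6 genes. The count was lowest at 2 genes without Saturated replicate 8 and highest at 8 genes without Trans replicate 3. No gene was called with any liver left out. The share of all genes passing the unadjusted p was not counted in these settings.

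**Figure D3:**
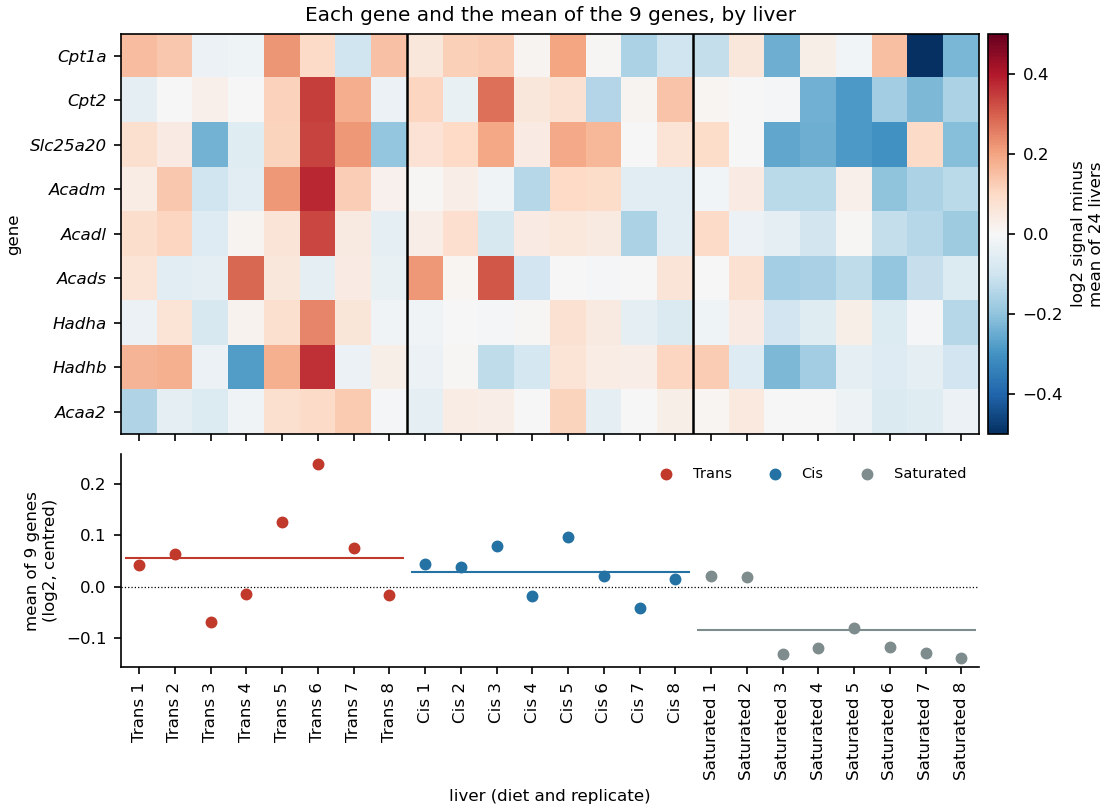
Log2 signal of the 9 genes in each of the 24 livers relative to the gene's mean over all livers, ordered by diet, with the average of the 9 genes per liver. Trans replicate 6 is high in most genes, and 6 of the 8 Saturated livers are low in most genes, with averages between -0.14 and -0.08.

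Whether genes of the pathway varied together between mice on the same diet was examined by centring each gene within its diet and correlating all 36 pairs over the 24 livers. The correlation was positive for 32 pairs and negative for 4, with a median Pearson r of 0.33. The strongest pair was Acadm and Hadha, at r = 0.840 and Spearman rho = 0.768 (Benjamini-Hochberg adjusted permutation p = 3.6e-04 and 0.0029 over the 36 pairs, the first resting on the smallest p the permutations can give). Within diets it was 0.939 in Trans, 0.642 in Cis and 0.720 in Saturated livers, and without the 2 livers farthest from the median it was 0.723. The medium-chain and long-chain dehydrogenases and Hadha formed the tightest group, since Acadl and Hadha correlated at r = 0.753 (rho = 0.676) and Acadm and Acadl at r = 0.745 (rho = 0.683). Without the 2 farthest livers, these values were 0.521 and 0.617. The translocase gene Slc25a20 correlated with Hadha at r = 0.690 (rho = 0.652) and with Acadm at r = 0.656 (rho = 0.583). Both values were higher without the 2 livers farthest from the median of Slc25a20 (Saturated replicates 5 and 6), at 0.798 and 0.734. Both were lower without Trans replicate 6, at 0.585 and 0.542. In all, 8 pairs had an adjusted permutation p under 0.05 by Pearson r, and 6 by both measures. Pairs of other genes were not correlated for comparison, so these counts cannot be called particular to the pathway.

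Hadha and Hadhb, the head-to-head pair, ranked only 14 of 36. Their r was 0.482 and rho 0.418 (unadjusted permutation p = 0.0605 and 0.0611, adjusted p = 0.155 and 0.147). The relation rested on few livers, since r was 0.244 without the 2 farthest from the median of Hadha and 0.238 without Trans replicate 6. It was 0.608 in Trans livers, -0.0672 in Cis livers and 0.440 in Saturated livers. Over all diets, Cpt1a and Acads had the lowest correlations with the rest of the set. With the average of the other 8 genes, the correlation was 0.166 for Cpt1a and 0.0639 for Acads, compared with 0.475 (Hadhb) to 0.841 (Acadm) for the other 7 genes. Cpt1a and Slc25a20, which act in successive steps of the shuttle, had an r of -0.123 and a rho of 0.0043, and the value differed between diets, at 0.0713 in Trans, 0.758 in Cis and -0.463 in Saturated livers. Acads varied by diet as well. With Acadm, its r was -0.349 in Trans, 0.107 in Cis and 0.723 in Saturated livers. With 8 livers per diet, these differences between diets were not tested.

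**Figure D4:**
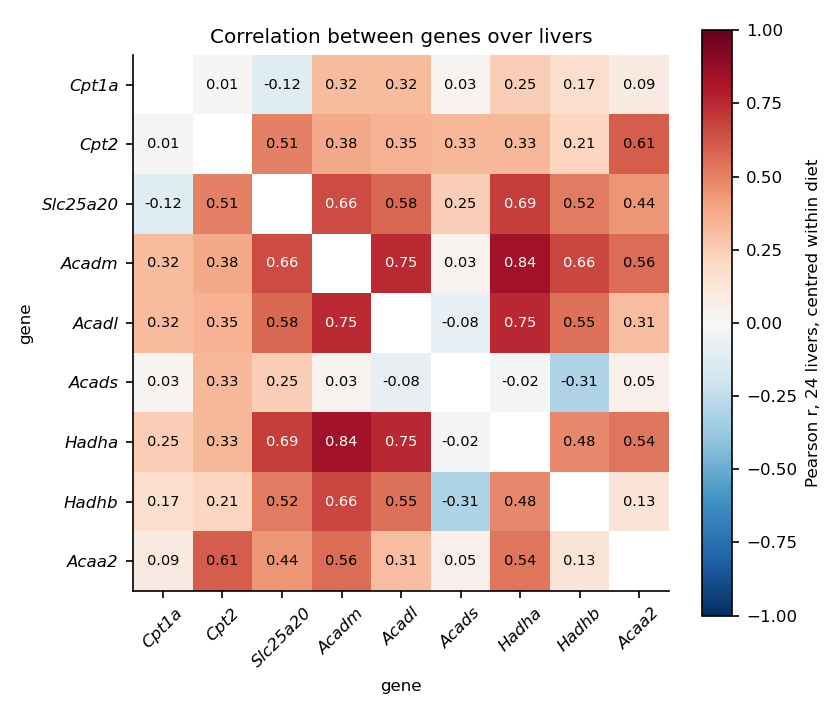
Pearson r between all pairs of the 9 genes over 24 livers, after centring each gene within its diet. Acadm, Acadl and Hadha form a block with r between 0.745 and 0.840, and the rows of Cpt1a and Acads are near 0 or low.

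The same diet-centred average of the 9 genes was set against the other 8340 genes with a mean signal over 20, over 24 livers. As a description, the closest were Sun2 (r = 0.796, rho = 0.598), a protein of the nuclear envelope, Ppp2r2d (r = 0.783), a regulatory subunit of protein phosphatase 2A, Retsat (r = 0.765), the retinol saturase, Rest (r = 0.753), a transcriptional repressor, Vwa8 (r = 0.750), a mitochondrial ATPase, Acat1 (r = 0.733), the mitochondrial acetoacetyl-CoA thiolase, Cmip (r = 0.697) and Cyp4a31 (r = 0.692), of the fatty acid ω-hydroxylase family. The median over all these genes was 0.0254 and the 95th percentile 0.410. Mrpl32 (r = -0.690), of the mitochondrial ribosome, Chmp5 (r = -0.688) and Mybbp1a (r = -0.671) were at the other end. Retsat and Vwa8 had higher means in Trans than in Saturated livers, by 0.27 (SE 0.12, limma adjusted p = 0.639) and 0.26 (SE 0.08, adjusted p = 0.372), whereas Acat1 differed by 0.04 (SE 0.04, adjusted p = 0.912).

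Other genes of fatty acid oxidation were read from lists chosen by function, and none was called in any comparison. Among 12 further enzymes of the mitochondrial spiral, 10 had a higher mean in Trans than in Saturated livers, with a median of 0.15, equal to that of the 9 genes, and 4 passed an unadjusted p under 0.05. These were Acad11 (0.18, SE 0.05, limma adjusted p = 0.396), an acyl-CoA dehydrogenase, Decr1 (0.22, SE 0.07), the 2,4-dienoyl-CoA reductase needed for unsaturated chains, Acad9 (0.18, SE 0.06), which also serves complex I assembly, and Ech1 (0.18, SE 0.07), a dienoyl-CoA isomerase. The Decr1 signal was 576, 635 and 772 (lowest, median and highest) in Trans livers, 560.1, 638 and 705 in Cis livers, and 464, 563 and 651 in Saturated livers. The Trans and Cis groups were thus close, and both overlapped with the Saturated group. Between Cis and Saturated livers the list had a median of 0.12 and 5 genes at an unadjusted p under 0.05, Hadh in addition to the 4 above.

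The lists for steps before and after the spiral had medians closer to 0. Of 13 measured genes for fatty acid activation, carnitine supply and other carnitine acyltransferases, 8 had a higher mean in Trans than in Saturated livers, with a median of 0.03 and 0 at an unadjusted p under 0.05. Acsl4, an acyl-CoA synthetase with a preference for polyunsaturated fatty acids, differed in the other direction, by -0.31 in Trans (SE 0.15, limma adjusted p = 0.687) and -0.41 in Cis livers (SE 0.15, adjusted p = 0.642) relative to the Saturated group. The 9 genes that set the level of malonyl-CoA, the inhibitor of CPT1A, had a median of -0.04 for Trans against Saturated, with 3 higher and 6 lower means and none at an unadjusted p under 0.05. Mlycd, which breaks malonyl-CoA down, was at 0.10 (SE 0.08, limma adjusted p = 0.836), and Acaca, the acetyl-CoA carboxylase of lipogenesis, at -0.26 (SE 0.22, adjusted p = 0.853). The 3 genes of the electron transfer flavoprotein and its oxidoreductase, which take the electrons from the dehydrogenases, differed by 0.01 to 0.05. Of the ketone body list, 3 of 5 genes were measured, and Bdh1, the 3-hydroxybutyrate dehydrogenase, had a difference of 0.29 between Trans and Saturated livers (SE 0.07, unadjusted p = 7.2e-04, limma adjusted p = 0.281).

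Peroxisomes run their own beta-oxidation of very long chains, and its genes are also PPARα targets in rodents. All 4 measured genes had a higher mean and an unadjusted p under 0.05 in Trans against Saturated livers, with a median of 0.25, beside 0.15 for the 9 mitochondrial genes. Acaa1b, a peroxisomal thiolase gene, had signals of 1618, 1737 and 1956 (lowest, median and highest) in Trans livers, 1585, 1642 and 1946 in Cis livers, and 1206, 1375 and 1718 in Saturated livers. Only the upper end of the Saturated group reached the Trans range. Its difference was 0.31 (SE 0.07, unadjusted p = 3.1e-04, limma adjusted p = 0.219). Ehhadh, the peroxisomal bifunctional enzyme, differed by 0.36 from Saturated (SE 0.12, adjusted p = 0.492) and by 0.29 from Cis livers (SE 0.12, adjusted p = 0.802). Trans replicate 6, the liver highest in 6 of the 9 mitochondrial genes, also had the highest Ehhadh signal, 1538, compared with a Trans median of 935.

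Of the transcriptional regulators, 11 of 12 were measured, and 7 had a higher mean in Trans than in Saturated livers (median 0.08), 2 of them (Ppargc1b and Creb3l3) and 1 lower gene (Ppargc1a) with an unadjusted p under 0.05. Ppara, the receptor gene, had signals of 493, 563 and 672 (lowest, median and highest) in Trans livers, 416, 542 and 647 in Cis livers, and 411, 509 and 590.3 in Saturated livers. The groups overlapped widely, and the difference was 0.18 for Trans against Saturated (SE 0.09, limma adjusted p = 0.698) and 0.05 for Cis against Saturated (SE 0.09, adjusted p = 0.951). The coactivator genes differed in opposite directions between Trans and Saturated livers. Ppargc1b was at 0.45 (SE 0.16, limma adjusted p = 0.513) and Ppargc1a at -0.33 (SE 0.14, adjusted p = 0.620). The signals of Ppargc1b were low, at 17.8 to 34.5 in Trans and 12.4 to 23.4 in Saturated livers. Creb3l3, a liver transcription factor active in fasting, was at 0.15 (SE 0.06, limma adjusted p = 0.591) and the deacetylase gene Sirt1 at -0.16 (SE 0.08, adjusted p = 0.695). For Ppargc1a the Cis livers lay lower still, at -0.51 relative to Saturated livers (SE 0.14, unadjusted p = 0.0010, adjusted p = 0.502), with signals of 47.8 to 81.0 in Cis and 62.8 to 104 in Saturated livers.

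**Figure D5:**
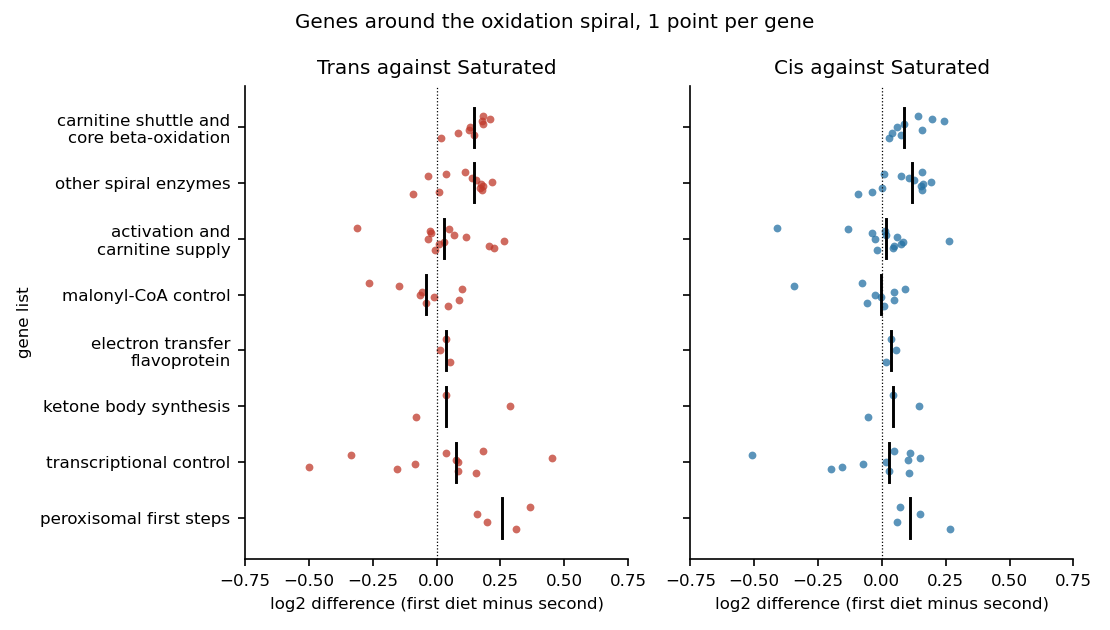
Log2 differences of the 9 genes and of 7 other lists of fatty acid oxidation genes, for Trans against Saturated and Cis against Saturated. Points are genes and bars are list medians. For Trans against Saturated, the median is 0.15 for the 9 genes and for the other spiral enzymes, 0.25 for the peroxisomal genes and -0.04 for the malonyl-CoA genes.

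Markers of liver cell types also differed in their means between Trans and Saturated livers, without a call. All 9 measured hepatocyte markers had a lower mean in Trans livers, with a median of -0.05 and 2 (Tat and Cps1) at an unadjusted p under 0.05, the direction opposite to that of the 9 oxidation genes. The means of the 5 smooth muscle markers were all higher (median 0.39), and their summed signal was 51.2 to 198 in Trans livers and 44.6 to 72.1 in Saturated livers. For 5 adipocyte markers the summed signal was 79.3 to 236 in Trans livers and 28.1 to 94.6 in Saturated livers, mostly through Cidec (1.57, SE 0.37, limma adjusted p = 0.219), a lipid droplet gene that fatty hepatocytes also express. Of 6 Kupffer cell markers 5 had a lower mean, with a median of -0.26 and a summed signal of 629 to 1329 in Trans livers and 760 to 1468 in Saturated livers. For the other lists the median was 0.14 for recruited macrophages (5 of 5 higher), 0.08 for stellate cells (4 of 6, of which 2 higher and 1 lower gene had an unadjusted p under 0.05), 0.07 for endothelial cells (5 of 6), -0.02 for cholangiocytes (2 of 5) and -0.06 for exocrine pancreas (1 of 3). The stellate list held opposite directions, with Acta2 at 0.96 (SE 0.36, limma adjusted p = 0.562), Col1a1 at 0.83 (SE 0.26, adjusted p = 0.429) and Lrat at -0.25 (SE 0.11, adjusted p = 0.623). Lymphocyte, neutrophil and striated muscle markers all had mean signals under 20, and only 1 marker each was over 20 in the smooth muscle, adipocyte, recruited macrophage, cholangiocyte and exocrine pancreas lists. Between Cis and Saturated livers, 7 of 9 hepatocyte markers (median -0.03) and 6 of 6 Kupffer cell markers (median -0.25) had a lower mean, and 5 of 5 adipocyte markers (median 0.16) a higher one, with Cidec at 1.23 (SE 0.37, limma adjusted p = 0.579). The part of cell composition in the differences of the 9 genes was not tested.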

How the data were processed

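Total RNA from 24 livers, 8 per diet and 1 array per mouse, was analysed. The authors normalised the scans in Bioconductor by RMA (robust multi-array average), which corrects the background, equalises the distributions of the arrays by quantiles and summarises the probes of a probe set. The deposited table holds log2 signals. Per the methods, probe sets were defined by gene identifier, whereas the rows of the deposited table are probe sets as the manufacturer designed them, so a gene can have several rows or share one, as Acadvl does. Versions and a genome build are not given in the sources used here. All 24 columns were used, and the labels name no batch. Of the 35556 probe sets, 21218 are assigned to a single gene, 1881 to several and 12457 to none in the platform annotation. Quantile normalization assumes like distributions across livers, and RMA compresses small differences at low signal. Probe brightness differs between probe sets, so levels were compared between livers and not between genes.

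Statistics were done with limma 3.58.1 under R 4.3.3 (lmFit, contrasts.fit and eBayes without trend), as a one-way model with 21 residual degrees of freedom. Tests were two-sided. The exact permutation tests used all splits of 8 against 8 livers and were not adjusted. Correlations, in Python 3.11.15, used 100000 permutations within diets. With arrays, the number of livers limits the precision.

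The 10 genes, the pathway lists and the marker lists were chosen with earlier results of these data known. Every measured gene of the set is named in each comparison, along with, from each pathway list, some of the 4 genes of lowest unadjusted p, and the 8 genes most like and 3 least like the average of the set. Ppara and the marker genes were named after their values were seen. Some genes of the other lists are not reported here. Alternatives were trend and robust eBayes, a mean signal over 20, only the 2 diets compared, array weights, the replicate number as a block, median centring, a further quantile normalization, 1 probe set per gene, the mean over a gene's probe sets, Tukey's post hoc test and leaving out each liver in turn. The counts at an unadjusted p were added after seeing the data.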

Additional observations from a re-analysis of the deposited data

Results flagged for a closer look

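Of 30 groups of 8 livers examined for a value far from the others (each of the 9 genes, and their average, in each diet), 2 held one, where chance alone marks about 1 in 20. The Acadl value of Trans replicate 6 was 9.51 on the log2 scale, compared with 9.28 in the next highest Trans liver and 9.11 in the lowest, so that this gap took 0.573 of the range. Without this liver the Acadl difference was 0.09 for Trans against Saturated and 0.03 for Trans against Cis. The Acads value of Trans replicate 4 was 8.67, compared with 8.45 in the next highest Trans liver and 8.33 in the lowest, a gap of 0.646 of the range. Trans replicate 4 also had the lowest Hadhb signal of all livers and the lowest array weight, 0.417. Without it the Acads difference was 0.09 for Trans against Saturated and -0.06 for Trans against Cis.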

How the results depend on the processing

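No gene of the set was called in any comparison under any alternative, and the median differences from the Saturated group kept their sign, at 0.13 to 0.19 for Trans and 0.07 to 0.10 for Cis over the livers left out in turn, and 0.02 to 0.06 for Trans against Cis. The number of genes higher at an unadjusted p under 0.05 for Trans against Saturated was less stable. It was 5 in the main analysis and 8 with trend and robust eBayes. With Tukey's post hoc test, whose p is already adjusted for the 3 comparisons of diets within each probe set, it was 3. It ranged from 2 to 8 with 1 liver left out. For Cis against Saturated the range was 2 to 4. The share of all genes passing was not counted under any alternative, so these counts lack that comparison. The labels do not say whether the replicate numbers pair the livers. Of 24 same-numbered pairs, 10 had deviations correlated above 0.1, with a median of 0.0399. Pairs of unlike number were not computed for comparison, so these values cannot decide whether the numbers pair the livers. With the replicate number as a block the counts were 6 for Trans against Saturated and 4 for Cis against Saturated, with 0 called.

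Small differences turned sign in some settings. The Acaa2 difference for Trans against Cis was 0.0212 after quantile normalization again, and with 1 liver left out it lay between -0.0302 (Trans replicate 7) and 0.0096 (Trans replicate 1). For Trans against Saturated it lay between -0.0012 (Trans replicate 7) and 0.0386 (Trans replicate 1). With 1 liver left out, Trans against Cis lay between -0.0245 (Trans replicate 6) and 0.0448 (Cis replicate 3) for Cpt2, and between -0.0628 (Trans replicate 4) and 0.0086 (Cis replicate 3) for Acads. The Hadha and Hadhb correlation was 0.582 without centring (permutation p = 0.0039), -0.0672 in Cis livers alone, and 0.238 to 0.548 with 1 liver left out, passing an unadjusted p under 0.05 without Trans replicate 1 (0.543), Trans replicate 4 (0.545) or Cis replicate 8 (0.548). The causes were not tested.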
